A study of Mus musculus with 16 samples.

Results

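Squalene is turned into cholesterol by a chain of enzymes, and 9 of their genes are described here in mouse spinal cord after chronic spinal cord injury (SCI): Fdft1, Sqle, Lss, Cyp51, Msmo1, Nsdhl, Ebp, Sc5d and Dhcr7. They were chosen by symbol from their place in the pathway, with earlier results of these data known. All 9 were found among the 24411 gene symbols of the files. RNA was sequenced from the spinal cord of 16 female C57BL/6J mice. Mice of the SCI groups had a lateral compression of the cord to 0.25 mm at the T8-9 vertebral level at 12 wk of age. From 2 wk after injury, 7 of them received atorvastatin at 10 mg/kg daily for 4 wk (SCI + Atorvastatin), dissolved in dimethyl sulfoxide, polyethylene glycol, Tween and saline. The other 7 received that solution alone (SCI + Vehicle), and the 2 mice of the Uninjured Control group had neither surgery nor treatment. A segment of 5 mm around the injury, or the matching site, was taken 6 wk after injury. Whole cord segments were used, so a lower level in a group can come from fewer cells of a type or from less RNA per cell, and these cannot be told apart. The labels give 12 wk as the age of the mice and, for the SCI groups, as the age at injury, while the methods of the study give a later age for the uninjured mice and one later still for the injured mice at collection. Injury and age at collection cannot be told apart.

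Cholesterol does not pass from blood into the central nervous system, so the cord makes its own, and much of it goes into myelin made by oligodendrocytes. The pathway runs from acetyl-CoA through mevalonate to farnesyl diphosphate, which Fdft1 joins into squalene, the point at which carbon is committed to sterols. Statins such as atorvastatin block the pathway at a step ahead of squalene. When sterols in a cell run low, the transcription factor SREBP-2 (gene Srebf2) enters the nucleus and raises transcription of nearly every enzyme of the route, often together with the CCAAT-binding factor NF-Y.

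The gene positions are those of GRCm38. Fdft1 (squalene synthase) lies on chr14:63145150-63179578, Sqle (squalene epoxidase) on chr15:59315077-59331192 and Lss (lanosterol synthase) on chr10:76531588-76557138. Cyp51, the lanosterol demethylase, lies on chr5:4081145-4104746. Msmo1 and Nsdhl, which take part in removing the remaining methyl groups, lie on chr8:64718139-64733792 and chrX:72918557-72958514. Ebp, the sterol isomerase, lies on chrX:8185329-8193512, Sc5d, the sterol desaturase, on chr9:42251595-42264256, and Dhcr7, the 7-dehydrocholesterol reductase that makes cholesterol itself, on chr7:143823145-143848410. All 9 are annotated as protein coding.

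The promoter stretches below show the CCAAT box, the motif that NF-Y reads, in the genes with a promoter window. Any part of this box in the levels of these genes was not tested. RefSeq promoter windows (GRCm38.p6, 250 bases before to 50 after each start site) matched 7 of the 9 genes; Fdft1 and Sqle were not matched. Each line gives 30 bases, 5′ to 3′ on the strand of the gene, with CCAAT or its reverse complement ATTGG in capitals. The stretches lie at chr10:76531531-76531560 (Lss, plus strand), chr5:4104709-4104738 (Cyp51, minus), chr8:64733616-64733645 (Msmo1, minus), chrX:72918489-72918518 (Nsdhl, plus), chrX:8193550-8193579 (Ebp, minus), chr9:42264307-42264336 (Sc5d, minus) and chr7:143830153-143830182 (Dhcr7, plus).
Lss: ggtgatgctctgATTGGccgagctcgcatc
Cyp51: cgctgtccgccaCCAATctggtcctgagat
Msmo1: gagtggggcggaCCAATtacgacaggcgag
Nsdhl: aagactagcctcATTGGgcaaaatcatgct
Ebp: atccctgtactgATTGGttcgtcagattcg
Sc5d: cgccggctgctgATTGGccggctgcctgca
Dhcr7: aatccacttccgATTGGtcgtctgtgacct

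A CCAAT box, on either strand, was in 7 of the members' 9 windows, 1 for each matched gene (2 of the 3 Dhcr7 windows held none), against 37.4% of all 32851 promoter windows. The nearest box upstream of the RefSeq start site of its window began 20 (Nsdhl) to 62 (Lss) bases before that site. The Cyp51, Msmo1 and Dhcr7 stretches lie inside the gene spans given above, whose ends differ from these start sites. The Dhcr7 stretch belongs to the most downstream of its 3 windows. The GC box GGGCGG, on either strand, was in 8 of the 9 windows, against 35.7% of all windows and 58.2% of those of the genes tested below. The sterol regulatory element was searched as TCACNCCAC on both strands. It was in 0 of the members' 9 windows and in 1.24% of all windows, and this says only that these letters are not in these stretches.

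Libraries held 14823292 to 25579826 counts on genes. The 2 Uninjured Control libraries stood apart from the others in ways that touch every comparison with them. Of 3245 genes with a mean of 200 to 500 counts over the SCI mice, 13.9% and 17.6% were listed at 0 in the control libraries. The share was at most 0.247% in any SCI library, but a low share there follows from picking genes by their SCI counts. Genes that rose with injury can also add to the zeros in the controls. Without such a choice, genes with any count numbered 12732 and 12356 in the control libraries and 16399 to 19338 in the SCI libraries. The summed level of 10 liver genes was 7137 and 1265 TPM (the deposited level, corrected for depth and gene length) in the controls and at most 12.0 TPM in SCI mice. Mbp, a main myelin protein, was present in all 16 libraries, at 8049 to 12743 TPM. Not every cord marker was: the microglia or macrophage markers P2ry12 and Tyrobp were at 0 TPM in Uninjured Control 2 (0 and 33 counts). The 16091 genes whose mean exceeded 1 TPM in any of the 3 conditions were tested, all 9 enzymes among them. Against the controls, a gene was called when it changed by more than 1.25-fold with an adjusted p below 0.05 in edgeR's quasi-likelihood test.

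Per unit of gene length, Msmo1 had the highest mean level of the 9 genes in each group, at 148 TPM in Uninjured Control, 46.8 ± 8.03 TPM (SD, n = 7) in SCI + Vehicle and 48.7 ± 5.76 TPM (SD, n = 7) in SCI + Atorvastatin. Fdft1, Sc5d and Cyp51 followed in this order in all 3 groups, with means of 92.9, 84.6 and 56.2 TPM in Uninjured Control. The neighbours in that order overlapped between mice in both SCI groups, and Msmo1 was above Fdft1 in only 3 of 7 SCI + Vehicle mice. In Uninjured Control, Fdft1 was above Sc5d in 1 of 2 mice, and Cyp51 was above Sqle, the next gene, in 1 of 2. At the low end the 2 control mice differed. By group mean, Ebp was the lowest gene in Uninjured Control (12.0 TPM). By mouse, Ebp was the lowest in Uninjured Control 1 (6.55 TPM) and Lss in Uninjured Control 2 (9.26 TPM). In both SCI groups the mean of Ebp lay near that of Sqle. The lowest mean there was that of Lss, at 10.5 TPM in SCI + Vehicle and 9.73 TPM in SCI + Atorvastatin. Dhcr7, Nsdhl and Lss reached at most 25.1 TPM in any mouse. Summed over the 9 genes, the level was 499 and 521 TPM in the 2 Uninjured Control mice, 209 to 272 TPM in SCI + Vehicle and 195 to 258 TPM in SCI + Atorvastatin, so no injured mouse reached either control.

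The first comparison was of chronic injury with the uninjured cord. In SCI + Vehicle, 6 of the 9 genes were called against Uninjured Control and all 6 were lower: Fdft1, Sqle, Cyp51, Msmo1, Sc5d and Dhcr7. Over all genes tested 29.4% were called, and 9.55% were called as lower. In SCI + Atorvastatin the same 6 genes and Lss were called as lower, against 38.9% of all genes called and 14% (2256 genes) called as lower. Both comparisons use the same 2 control mice and are given side by side. The 9 genes had a median log2 fold change of -1.32 with vehicle and -1.42 with atorvastatin, against 0.17 and 0.21 over all genes tested. Values below are CPM, counts scaled to a common library size after TMM, an edgeR correction for library composition.

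Msmo1, the methylsterol monooxygenase, had the largest fold change of the 9 genes in size. It was at 92.3 and 131 CPM in the 2 Uninjured Control mice, at 23.9 to 37.4 CPM (median 31.8) in SCI + Vehicle and at 27.3 to 37.1 CPM (median 32.8) in SCI + Atorvastatin. Every injured mouse was far under the lower control, and the SCI group means were 27.9% and 29.0% of the control mean. The log2 fold change was -1.86 ± 0.18 (SE; edgeR adjusted p = 0.000108) in SCI + Vehicle and -1.78 ± 0.16 (adjusted p = 3.48e-05) in SCI + Atorvastatin.

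Fdft1, which makes squalene, was at 148 and 166 CPM in the controls, at 47.5 to 84.3 CPM (median 61.5) in SCI + Vehicle and at 41.1 to 66.5 CPM (median 56.6) in SCI + Atorvastatin. The 2 controls lay close to each other and well above all 14 injured mice. Its log2 fold changes were -1.32 ± 0.20 (edgeR adjusted p = 0.000876) and -1.47 ± 0.16 (adjusted p = 9.75e-05) in SCI + Vehicle and SCI + Atorvastatin.

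Sqle, the oxygen-requiring step after it and a known control point of the pathway, was at 66.7 and 81.4 CPM in the controls, at 22.5 to 37.2 CPM (median 28.2) in SCI + Vehicle and at 23.4 to 35.0 CPM (median 27.0) in SCI + Atorvastatin. The injured groups covered nearly the same range as each other and did not reach the controls. The log2 fold changes were -1.41 ± 0.19 (edgeR adjusted p = 0.000551) and -1.42 ± 0.16 (adjusted p = 0.000132).

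**Figure D1:**
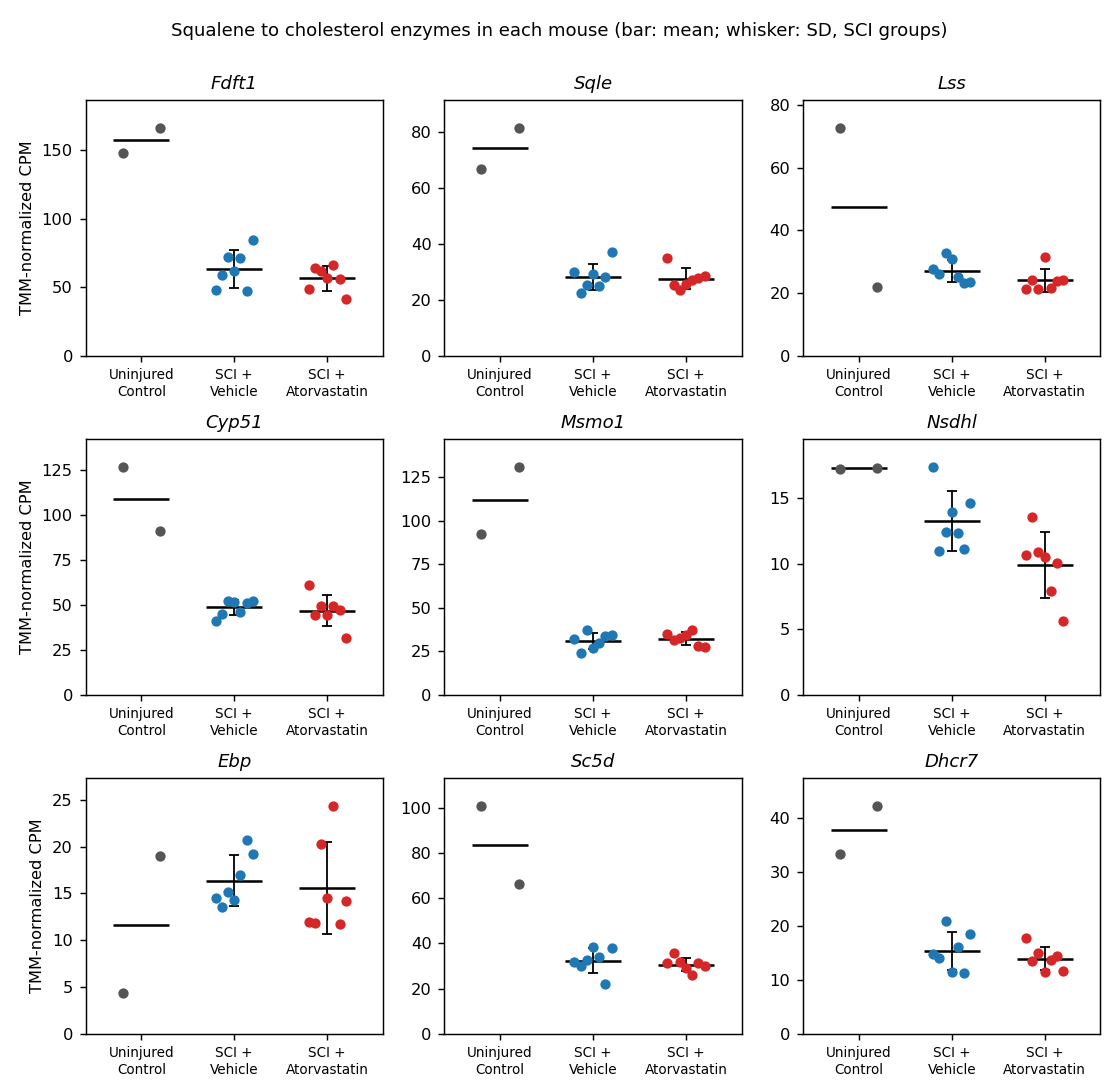
TMM-normalized CPM of each of the 9 enzyme genes (a panel each, linear axis from 0) in every mouse of the Uninjured Control (n = 2), SCI + Vehicle (n = 7) and SCI + Atorvastatin (n = 7) groups, 1 point per mouse, with the group mean as a bar and the SD as a whisker in the SCI groups. In the panels of Fdft1, Sqle, Cyp51, Msmo1, Sc5d and Dhcr7 both controls sit above all 14 injured mice, while the 2 controls of Lss (72.8 and 22.0 CPM) and of Ebp (4.38 and 19.0 CPM) lie far apart.

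Cyp51, a cytochrome P450 and the target of azole drugs in fungi, was at 127 and 90.8 CPM in the controls, at 41.2 to 52.3 CPM (median 51.0) in SCI + Vehicle and at 31.5 to 60.8 CPM (median 47.1) in SCI + Atorvastatin. The groups with injury were again wholly below the controls, with a narrow spread in SCI + Vehicle and a wider spread in SCI + Atorvastatin. In SCI + Vehicle and SCI + Atorvastatin the log2 fold changes were -1.18 ± 0.15 (edgeR adjusted p = 0.000390) and -1.21 ± 0.20 (adjusted p = 0.00107).

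Sc5d, which places a double bond in the sterol ring late in the route, was at 101 and 66.3 CPM in the controls, at 22.0 to 38.5 CPM (median 32.5) in SCI + Vehicle and at 25.9 to 35.8 CPM (median 31.1) in SCI + Atorvastatin. All injured mice were below the lower control. The fits gave log2 fold changes of -1.38 ± 0.22 (edgeR adjusted p = 0.00107) and -1.44 ± 0.17 (adjusted p = 0.000136).

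Dhcr7, whose loss in humans causes Smith-Lemli-Opitz syndrome, was at 33.3 and 42.3 CPM in the controls, at 11.3 to 20.9 CPM (median 14.8) in SCI + Vehicle and at 11.4 to 17.7 CPM (median 13.8) in SCI + Atorvastatin. No injured mouse overlapped with a control. This came to log2 fold changes of -1.32 ± 0.28 (edgeR adjusted p = 0.00534) and -1.43 ± 0.22 (adjusted p = 0.000677). For these 6 genes, then, 7 of 7 mice in each SCI group were below both controls. Over all genes tested, 10.7% were lower without overlap in SCI + Vehicle and 14.2% in SCI + Atorvastatin.

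Nsdhl, the sterol dehydrogenase that acts with Msmo1, was less clear. The controls were almost equal, at 17.3 CPM each. SCI + Vehicle mice ranged from 11.0 to 17.4 CPM (median 12.4), with 6 of 7 below both controls, and SCI + Atorvastatin mice from 5.62 to 13.6 CPM (median 10.5), with 7 of 7 below both. The log2 fold changes of -0.39 ± 0.30 (edgeR adjusted p = 0.352) and -0.79 ± 0.33 (adjusted p = 0.0855) were not called. The latter passed at an adjusted p of 0.0381 in DESeq2 and 0.0291 with all 3 groups in 1 edgeR fit. It was also called by limma on log2(TPM + 1) and log2(TPM + 0.1).

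The values of Lss and Ebp rested on which control mouse was used. Lss, which folds squalene epoxide into the ring system of lanosterol, was at 72.8 CPM in Uninjured Control 1 and 22.0 CPM in Uninjured Control 2. SCI + Vehicle mice ranged from 23.2 to 32.7 CPM (median 26.0) and SCI + Atorvastatin mice from 21.2 to 31.6 CPM (median 24.0), so all 14 injured mice lay below the first control, while all 7 SCI + Vehicle mice lay above the second and 3 of 7 SCI + Atorvastatin mice below it. The log2 fold change was -0.82 ± 0.34 (edgeR adjusted p = 0.0903) in SCI + Vehicle and -0.97 ± 0.34 (adjusted p = 0.0437) in SCI + Atorvastatin. Without Uninjured Control 1 these became 0.28 and 0.14, neither called, and without Uninjured Control 2 they became -1.44 and -1.60, both called. The call in SCI + Atorvastatin was also lost on leaving out any mouse of that group but mouse 4 (adjusted p between 0.0678 and 0.0746).

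Ebp was at 4.38 CPM in Uninjured Control 1 and 19.0 CPM in Uninjured Control 2. SCI + Vehicle mice ranged from 13.6 to 20.7 CPM (median 15.2) and SCI + Atorvastatin mice from 11.8 to 24.4 CPM (median 14.2), all above the first control and mostly under the second. The log2 fold changes of 0.47 ± 0.47 (edgeR adjusted p = 0.490) and 0.42 ± 0.51 (adjusted p = 0.552) were not called. Without Uninjured Control 1 they became -0.23 and -0.27, and without Uninjured Control 2 they became 1.89 and 1.83, the latter pair called. With all mice kept, limma on both TPM scales called Ebp as higher in SCI + Atorvastatin (lowest adjusted p = 0.0475). In raw reads the controls held 87 and 418 counts of Ebp and 1447 and 485 counts of Lss. An antisense gene, 4930483K19Rik, overlaps Lss over 11268 bases and had at most 3 counts in any mouse. Fdft1 overlaps Ctsb on the opposite strand over 774 bases, and Ctsb had up to 40817 counts in a mouse. Cyp51 overlaps Akap9 over 166 bases, and Akap9 had up to 12053 counts. Whether strand was used in counting is not stated.

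**Figure D2:**
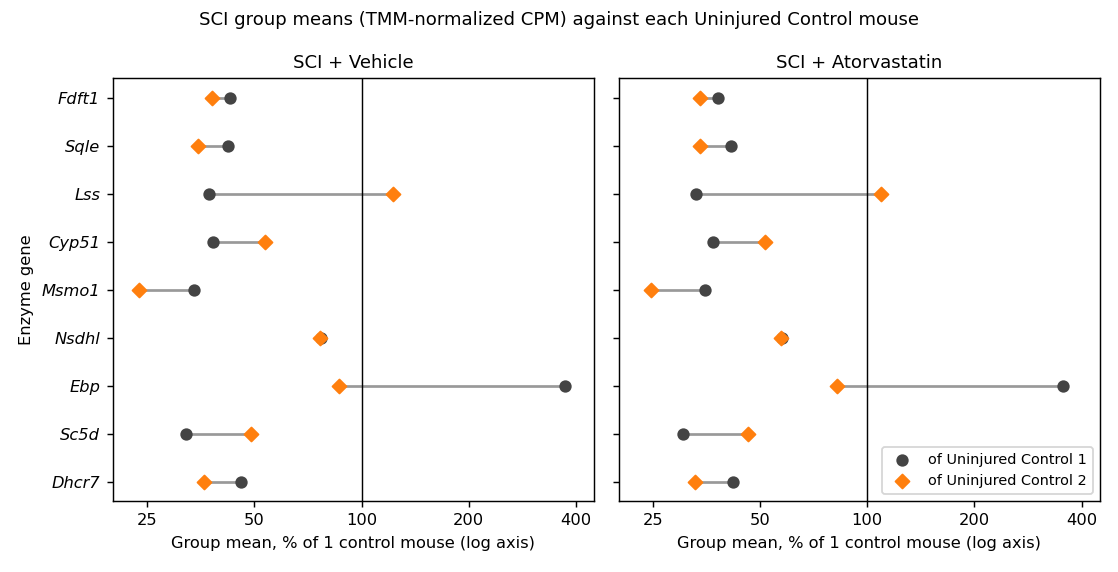
Mean TMM-normalized CPM of each enzyme gene in SCI + Vehicle (left) and SCI + Atorvastatin (right) as a percent of Uninjured Control 1 (circles) and of Uninjured Control 2 (diamonds), on a log axis with a line at 100%. For 7 genes both symbols are left of the line, and for Lss (37.2% and 123% in SCI + Vehicle) and Ebp (374% and 86.2%) they lie on either side of it.

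Between the 2 controls the absolute log2 difference had a median of 0.48 over the 9 genes and of 0.66 over all genes tested, and it passed 1 for 2 of the 9 (Lss and Ebp) and for 38.5% of all genes. The liver genes differed between the controls as well (7137 and 1265 TPM). The summed level of the 9 enzymes was 499 and 521 TPM. Single enzymes differed in both directions, with Sc5d at 99.7 and 69.5 TPM and Msmo1 at 120 and 175 TPM. The liver is itself a site of cholesterol synthesis, and the part of the liver RNA in these differences was not tested. A fit that weighed each group by its own spread (voom with group quality weights) called 2 of the 9 genes in SCI + Vehicle (Sqle and Msmo1) and 3 in SCI + Atorvastatin (Sqle, Msmo1 and Sc5d), against 154 and 186 genes in all.

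Other genes of the pathway were compared in the same fits. Lbr, a sterol reductase that is also a nuclear envelope protein holding chromatin, rose by 1.36 ± 0.41 on the log2 scale in SCI + Vehicle (edgeR adjusted p = 0.0294) and by 1.78 ± 0.29 in SCI + Atorvastatin (adjusted p = 0.000995). The call in SCI + Vehicle was lost with voom (adjusted p = 0.662) and on both TPM scales (limma adjusted p = 0.135 and 0.126). It was also lost without SCI + Vehicle 5 (edgeR adjusted p = 0.0513), SCI + Vehicle 6 (0.0502) or Uninjured Control 1 (0.0631). Tm7sf2, the other gene for that reductase step, had log2 fold changes of -0.94 and -1.31, not called. Hsd17b7 (-0.58 and -0.50) and Erg28 (-0.14 and -0.18) were not called either.

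Among the mevalonate and prenyl enzymes, Hmgcs1, Mvk, Pmvk and Fdps were called as lower in each SCI group. None of the list was called as higher, and 1 of the 9 had a log2 fold change above 0 in each SCI group. Fdps, which makes the farnesyl diphosphate used by Fdft1, had -1.90 and -1.95. Among the sterol regulators, Insig1, a known target of SREBP-2, fell in each SCI group, with log2 fold changes of -1.21 in SCI + Vehicle and -1.12 in SCI + Atorvastatin. In SCI + Atorvastatin, Srebf2 (-0.51) and Scap (-0.46) were called as lower and Srebf1 (0.45) as higher. In SCI + Vehicle these 3 had -0.54, -0.41 and 0.43, not called.

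**Figure D3:**
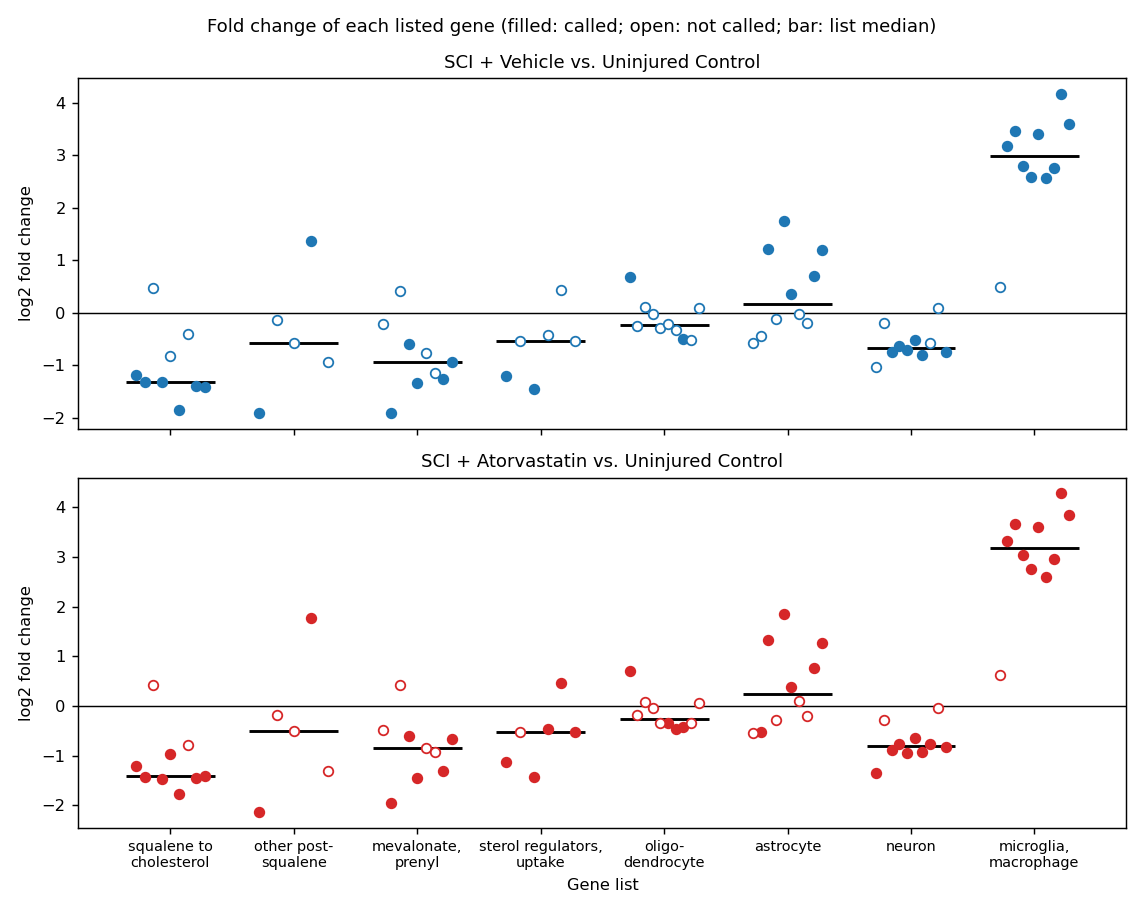
Log2 fold change against Uninjured Control (vertical axis) of each gene of 4 sterol lists and 4 cell type marker lists, for SCI + Vehicle (top) and SCI + Atorvastatin (bottom); filled points were called, open points were not, and bars are list medians. The median of the 9 enzymes (-1.32 and -1.42) is the lowest of the 8 lists in both panels, that of the oligodendrocyte markers (-0.23 and -0.26) is near 0 and that of the microglia or macrophage markers (2.98 and 3.17) is the highest.

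Cell type markers moved between the groups too. The summed level of 10 oligodendrocyte markers overlapped between groups, at 13500 and 19115 TPM in Uninjured Control, 15422 to 20092 TPM in SCI + Vehicle and 14147 to 16953 TPM in SCI + Atorvastatin, and 1 and 3 of the 10 were called as lower and 1 as higher in each SCI group. Mbp alone gave 9013 and 11346 TPM of that sum in the 2 controls. The summed level of the 9 enzymes overlapped between the 2 SCI groups but not between injured and control mice. The microglia or macrophage sum was 422 and 569 TPM in the controls and 4155 to 6954 TPM in injured mice, with 9 of 10 markers called as higher in each SCI group. The astrocyte sum was 4643 and 5421 TPM in the controls and 9028 to 11529 TPM in injured mice, with 5 of 10 markers called as higher in each SCI group and 1 as lower in SCI + Atorvastatin. Of 10 neuron markers, 6 were called as lower in SCI + Vehicle and 8 in SCI + Atorvastatin, and their sum was 10156 and 12693 TPM in the controls and 6326 to 10296 TPM in injured mice. The fibroblast sum was 153 and 158 TPM in the controls, 99.6 to 766 TPM in SCI + Vehicle and 499 to 1241 TPM in SCI + Atorvastatin. The Schwann cell sum was 284 and 448, 31.0 to 221, and 146 to 285 TPM in the same order. The part of these cell types in the lower enzyme levels was not tested.

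The second comparison was of atorvastatin with vehicle after injury, where genes were called at a change of more than 1.25-fold and an unadjusted p below 0.001. None of the 9 enzymes was called by edgeR (0 of 9), against 17 genes or 0.106% of all genes tested, and the smallest adjusted p of any gene was 0.680. All 9 groups of values overlapped between treatments, as the plot of CPM by mouse shows. The log2 fold changes ran from -0.42 (Nsdhl) to 0.05 (Msmo1), with a median of -0.08 against 0.00 over all genes tested, and 8 of the 9 were below 0, of which Sqle and Ebp turned to just above 0 on a TPM scale. At an unadjusted p under 0.05, 1 of the 9 passed (Nsdhl), against 7.03% of all genes, and DESeq2 also called 0 of 9.

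Nsdhl had the widest difference. Its mean was 13.3 ± 2.27 CPM (SD, n = 7) in SCI + Vehicle and 9.90 ± 2.52 CPM (SD, n = 7) in SCI + Atorvastatin, a log2 fold change of -0.42 ± 0.18 (edgeR unadjusted p = 0.0287, adjusted p = 0.692). The lowest mouse was SCI + Atorvastatin 7 (5.62 CPM) and the highest was SCI + Vehicle 1 (17.4 CPM). Without the former mouse the log2 fold change was -0.32 (unadjusted p = 0.0648), and without the latter it was -0.35 (unadjusted p = 0.0721).

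For the other 8 genes the 95% interval of the log2 fold change held 0. The interval was -0.29 to 0.22 for Sqle, -0.29 to 0.18 for Cyp51, -0.18 to 0.29 for Msmo1, and -0.32 to 0.16 for Sc5d. It was -0.44 to 0.10 for Fdft1, -0.42 to 0.08 for Lss, -0.44 to 0.29 for Ebp and -0.47 to 0.19 for Dhcr7. For Sqle, Cyp51 and Msmo1 the intervals do not reach the 1.25-fold limit in either direction. Those of the other 5 genes reach it below 0, so a fall of that size lies within their intervals.

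**Figure D4:**
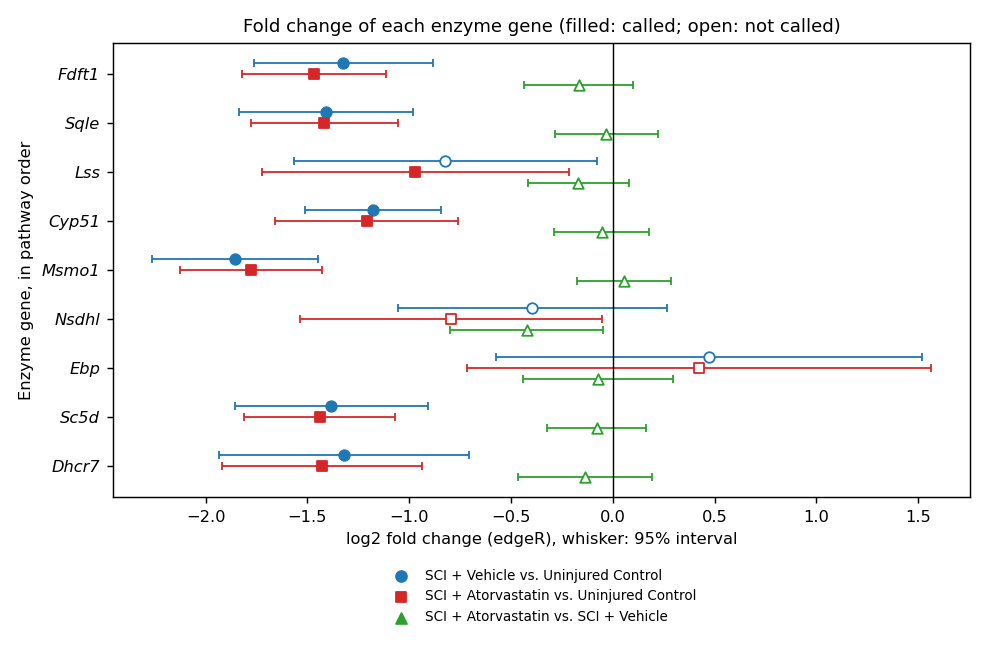
Log2 fold change with its 95% interval (edgeR) of each enzyme gene, in pathway order from top to bottom, in SCI + Vehicle against Uninjured Control (circles), SCI + Atorvastatin against Uninjured Control (squares) and SCI + Atorvastatin against SCI + Vehicle (triangles); filled symbols were called. Circles and squares lie near -1.2 to -1.9 for 6 genes, all triangles are open and near 0, and only that of Nsdhl (-0.80 to -0.05) has an interval without 0.

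Around them, none of the other post-squalene, mevalonate or regulator genes was called between the treatments. Lbr had a log2 fold change of 0.39 ± 0.17 (edgeR unadjusted p = 0.0339, adjusted p = 0.693). All 8 fibroblast markers were higher in SCI + Atorvastatin, 7 of them at an unadjusted p under 0.05 and none called, with a median log2 fold change of 0.82. The 8 Schwann cell markers were also all higher (median 0.45, 1 at an unadjusted p under 0.05), as were the 10 microglia or macrophage markers (median 0.15, 2 at that level). The 10 neuron markers were all lower (median -0.16, 1 at that level), and none of these markers was called. Their part in the differences of the 9 enzymes was not tested.

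Within the SCI groups, the 9 genes were compared mouse by mouse after subtracting the group means (14 mice, log2 CPM). Of the 36 pairs of genes, 25 had a positive Pearson r, the median r was 0.23 and the range was -0.45 to 0.51. None passed an adjusted p of 0.05 in a permutation test within groups (100000 resamples; smallest adjusted p = 0.490), and 1 passed at an unadjusted 0.05. By Spearman's rho 0 pairs passed after adjustment. The median r was 0.05 in SCI + Atorvastatin alone, 0.22 in SCI + Vehicle alone and 0.01 after leaving out the 2 mice farthest from the median of each pair. The mean z-score of the 9 genes was lowest in SCI + Atorvastatin 7 (-0.96) and SCI + Vehicle 2 (-0.76) and highest in SCI + Vehicle 7 (0.85) and SCI + Vehicle 3 (0.56). Over the 14 mice, r to that mean was positive for 10 of 10 neuron markers (0.33 to 0.82), 9 of 10 oligodendrocyte markers (-0.14 to 0.58) and 6 of 10 astrocyte markers (-0.38 to 0.57). It was negative for 8 of 8 fibroblast markers (-0.60 to -0.32), 8 of 8 Schwann cell markers (-0.56 to -0.021) and 9 of 10 microglia or macrophage markers (-0.59 to 0.13). These are descriptions with no test, and the part of the cell types in the enzyme levels of single mice was not tested.

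The genes outside the 9 whose level most resembled that mean z-score over the 14 mice included Epdr1, Ttll7, Bicd1, Acly, Pfn2, Trim37, Popdc3, Tubb4b and Necap1, with r from 0.89 (Epdr1) to 0.84 (Necap1). They were picked for their r, which is given as a description with no test. Acly (r = 0.87), ATP citrate lyase, makes the acetyl-CoA from which sterols and fatty acids are built. Of the pathway genes, Insig1 had r = 0.72 and Lbr -0.61.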

How the data were processed

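The data were RNA sequencing of 16 mouse spinal cords in 3 groups, and conditions were taken from the sample labels. Reads were trimmed by the authors (Trimmomatic 0.38), mapped to mm10 (STAR 2.5.4b) and quantified per gene (RSEM 1.3.1), per the study's methods and the submitters' processing notes. They deposited whole-number counts with no normalization, and TPM normalized for gene length and depth. The step that made the counts is not given in the sources used here. Libraries were made from total RNA with a low-input stranded kit.

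Genes whose mean exceeded 1 TPM in any condition were tested with edgeR 4.0.16 in R 4.3.3 (TMM, quasi-likelihood test, Benjamini-Hochberg adjustment over 16091 genes, only the 2 groups compared in each fit). SE is the log2 fold change over the root of the F statistic. TMM-normalized CPM were used for values by mouse and TPM for levels between genes. DESeq2 1.42.0 and limma 3.58.1 gave alternatives, and the scripts were tested on simulated counts. The mice are biological replicates per the labels. The members and gene lists were chosen with earlier results of these data known. Named genes were the 9 members, the genes of the lists and the 10 genes with the highest r to the members. Positions come from GENCODE on GRCm38 and promoter windows from RefSeq on GRCm38.p6. Some genes of the lists are not reported here.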

Additional observations from a re-analysis of the deposited data

Results flagged for a closer look

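Of 18 sets of 7 values (9 genes in 2 SCI groups) tested for a mouse far from the rest, 1 stood out. Lss in SCI + Atorvastatin 4 was at 31.6 CPM, against 21.2 to 24.3 CPM in the other 6 mice. Its gap to the nearest mouse was 0.701 of the range of the group, over the critical value of 0.568 for 7 samples. Chance gives such a value in about 1 in 20 sets. Without this mouse the log2 fold change of Lss against Uninjured Control was -1.05 (edgeR adjusted p = 0.0439).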

How the results depend on the processing

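The number of enzymes called stayed within 1.5 times of 6 (SCI + Vehicle) and 7 (SCI + Atorvastatin) under DESeq2, its size factors, 3 other gene filters, limma on TPM and a fit of all 3 groups. In SCI + Atorvastatin, limma on both TPM scales called 8, with Ebp as higher, Nsdhl as lower and Lss not called. With voom it was 2 and 3, and the cause was not tested. With the replicate number as a block (replicate block) it was 0 and 0, with 16 and 0 genes called in all. Only SCI mice 1 and 2 enter the comparison in the block fit, since the rest have no control of their number. Mice with the same number did not deviate together (r from -0.19 to 0.11, 0 of 7 pairs best with their own number), so the numbers were not taken as pairs. Leaving out 1 mouse gave 6 to 8 and 6 to 8 enzymes, and 0 between treatments under every alternative run. All genes called came to 7673 and 7806 in SCI + Vehicle and to 9706 and 9826 in SCI + Atorvastatin without control 1 or 2, to 2398 and 3710 with a TPM above 1 in every condition and to 2867 and 4063 with a minimum of 10 counts in each mouse. Between treatments 37 genes were called by DESeq2, 10 by voom, 8 with the block, 1 with all 3 groups in 1 fit, 0 by adjusted p and 5 to 32 on leaving out 1 mouse. On log2(TPM + 1) the median of all genes moved from 0.17 to 0.49 in SCI + Vehicle and from 0.21 to 0.52 in SCI + Atorvastatin, and 3763 of 4452 and 5078 of 6316 calls were higher, against 3190 of 4726 and 4003 of 6259 in edgeR. The 6 enzymes stayed lower there. On leaving out 1 mouse, the log2 fold change against the controls ran from -1.44 to 0.28 (SCI + Vehicle) and -1.60 to 0.14 (SCI + Atorvastatin) for Lss and from -0.23 to 1.89 and -0.27 to 1.83 for Ebp, the ends being those without either control. Between treatments the log2 fold change of Sqle turned from -0.03 to 0.012 (TPM + 1) and 0.012 (TPM + 0.1) and that of Ebp from -0.07 to 0.0099 and 0.0099. On leaving out 1 mouse it ran from -0.10 to 0.045 for Sqle and from -0.13 to 0.022 for Cyp51. With 2 controls, the spread in the uninjured cord is poorly known.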
